A study of Homo sapiens with 4 samples.

Results

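The transcription factors TP63, TP73, SOX2, PITX1, KLF4, KLF5, GRHL2, GRHL3 and ZNF750, which act in squamous epithelium, were followed in 2 lines of head and neck squamous carcinoma (HNSCC) and their cisplatin-resistant sublines. The members were every probe that the array design names after these 9 genes, which gave 13 of 58201 probes and 9 of 43305 gene names. ZNF750, a zinc finger factor of late squamous differentiation, was higher in both resistant lines, 7.75-fold in HN4/DDP and 11.0-fold in HN30/DDP (log2 differences of 2.95 and 3.46, the latter 2.59 with normexp background correction). GRHL3, a grainyhead factor of barrier formation, was 45.1-fold higher in HN4/DDP (5.49 in log2, 4.50 with normexp and 3.67 as the mean of its 2 probes) and 2.64-fold higher in HN30/DDP. The KLF4 difference was 0.65 (log2) in HN4/DDP and 1.40 in HN30/DDP. For TP63, PITX1, KLF5 and GRHL2 the difference was -0.06 to -1.61 (log2) in the resistant lines, though PITX1 in HN30/DDP turned to 0.15 with quantile normalization. SOX2 was not well above background on any array.

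HN4 and HN30 are human HNSCC lines grown in DMEM with 10% FBS. Their resistant sublines, HN4/DDP and HN30/DDP (DDP is another name for cisplatin), were derived under rising cisplatin and, by the labels, were kept in medium with 20 μM cisplatin for 48 h, while no cisplatin is given for the parental lines. RNA of each line was hybridised to 1 one-colour array, so that each of the 4 conditions had 1 sample, and acquired resistance and the presence of the drug cannot be told apart. Each resistant line is a single derivation, and the sources used here do not say whether it was a clone.

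The stratified squamous epithelium of mouth and skin has a proliferating basal layer and layers above it that differentiate. TP63 is the factor that sets up and keeps the basal layer, TP73 is its close relative, and SOX2 is often amplified together with it in squamous carcinoma. PITX1 is a homeodomain factor expressed in oral epithelium and in squamous carcinoma. KLF5 is found in proliferating epithelial cells, whereas KLF4 acts in the upper layers, where it takes part in forming the barrier. GRHL2 keeps epithelial junction genes active, GRHL3 drives the terminal programme, and ZNF750 is induced by TP63 and in turn switches on late genes while it represses basal ones.

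Levels are given as log2 of the processed signal minus the 75th percentile of the same array, so that 0 is the level of a fairly bright probe. The 75th percentile lay at a signal of 444 to 496 on the 4 arrays. The error beside a value is the scanner software's own error for that spot, turned into a log2 SD. For a difference of 2 arrays it came to about 0.2 for member probes well above background and was larger for those at background, and it leaves out culture and labelling, so that the difference within a line has no test. This error is the software's estimate, and for the brightest member probe it was 0.144 on every array. It is not a spread between spots, because each member probe had 1 spot. Among 300 replicated probes the median SD between spots was 0.023 to 0.028 on the 4 arrays. A spot is called well above background when the software marked it so, and the lowest such level was -4.76 in HN4 against -4.99 in HN4/DDP, and -4.63 in HN30 against -4.94 in HN30/DDP. Between 55.3% and 63.6% of all spots were well above background, and 0 spots were saturated. Levels of different probes are not set against each other, because probes differ in brightness.

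Of 8 squamous epithelial markers, 8 were well above background in HN4, HN4/DDP and HN30 and 7 in HN30/DDP, where KRT6A was not. Their summed signal was 56617 to 60171 in those lines and 43959 in HN30/DDP. Of 13 mesenchymal markers, 6 to 7 were well above background on each array, with a summed signal of 740 to 1266, and COL1A2, COL3A1, THY1, DCN and LUM were not well above background on any array. Of 4 immune markers on the array, 2 or 3 were well above background. Their summed signal came almost wholly from CD14, whose level was 5.30 in HN30/DDP and 1.82 to 3.19 in the other lines. Of 4 endothelial markers, 2 or 3 were well above background, with a summed signal of 99.3 to 157, and KDR was not well above background on any array. The part of other cell types in the results was not tested, and in bulk RNA fewer cells of a type and less RNA per cell cannot be told apart.

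The probes behind the largest differences are shown by 30 of their 60 bases, because the place of a probe decides which transcripts it sees. The bright GRHL3 probe lies at chr1:24681534-24681593 (hg19, plus strand), and its first 30 bases end in the letters TAA, in capitals, a stop codon when read in frame from base 1.
GRHL3 probe, first 30 bases: atcgactggaacaaagtgaccgctgtgTAA
The ZNF750 probe lies at chr17:80787362-80787421 (hg19, minus strand), and its last 30 bases hold the polyadenylation signal AATAAA, in capitals.
ZNF750 probe, last 30 bases: atgttgctaattttccAATAAActcatatg
A second GRHL3 probe lies further along the gene, at chr1:24690909-24690968 (hg19). It was designed for another transcript variant. The exon annotation of the build was not used here.

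The starts of GRHL3 and of KLF4, which passed a difference of 1 in both resistant lines and in HN30/DDP, respectively, are shown by the 250 bases before them, from RefSeq on GRCh38.p14. ZNF750 has no entry in that table. Capitals mark matches on either strand to the GC box, spelled GGGCGG, to the box of KLF factors named by its letters CACCC, and to CCNNAGGC, which is reported for ZNF750. No 2 matches overlap in these windows.
GRHL3, first start, chr1:24319107-24319356, plus strand: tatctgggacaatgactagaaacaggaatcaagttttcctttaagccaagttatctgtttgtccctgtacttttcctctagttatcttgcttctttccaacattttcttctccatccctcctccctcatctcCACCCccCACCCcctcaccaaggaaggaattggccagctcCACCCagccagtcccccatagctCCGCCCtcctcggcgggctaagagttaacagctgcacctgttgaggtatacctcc
GRHL3, second start, chr1:24322790-24323039, plus strand: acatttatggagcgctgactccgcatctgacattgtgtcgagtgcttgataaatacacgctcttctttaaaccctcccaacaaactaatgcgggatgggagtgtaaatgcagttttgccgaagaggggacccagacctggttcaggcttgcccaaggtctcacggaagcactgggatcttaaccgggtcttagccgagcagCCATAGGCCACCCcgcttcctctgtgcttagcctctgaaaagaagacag
KLF4, chr9:107489770-107490019, minus strand: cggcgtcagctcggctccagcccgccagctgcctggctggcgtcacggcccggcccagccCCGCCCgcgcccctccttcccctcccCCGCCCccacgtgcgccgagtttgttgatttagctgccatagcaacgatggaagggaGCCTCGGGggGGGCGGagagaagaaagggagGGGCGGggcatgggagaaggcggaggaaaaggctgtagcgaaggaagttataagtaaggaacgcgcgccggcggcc
The first GRHL3 window holds 3 CACCC boxes and 1 GC box, the second 1 CACCC box and 1 CCNNAGGC match, and the KLF4 window 4 GC boxes and 1 CCNNAGGC match. Of all promoters in the table, 42.6% hold a GC box, 54.7% a CACCC box and 23.5% the CCNNAGGC letters in the same 250 bases. Also searched on both strands were AACCNGTT (grainyhead factors, in 1.49% of all promoters), TGANTCA (AP-1, in 6.57%) and TGACGTCA (the cAMP response element, in 1.65%), which have 0 matches in these 3 windows. A match is a string of letters and not a measured binding site.

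TP63, which keeps the basal layer, was seen by 1 probe at chr3:189586433-189586492 (hg19, plus strand). Which of its isoforms this probe sees was not determined here. Its level was -0.77 in HN4 against -1.59 in HN4/DDP, and -0.81 in HN30 against -0.87 in HN30/DDP. The 3 arrays other than HN4/DDP lay within 0.10 of each other, less than their scanner error, and HN4/DDP was below them. The difference was -0.82 ± 0.21 (scanner SD) in HN4/DDP and -0.06 ± 0.21 in HN30/DDP.

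TP73, the relative of TP63 that also takes part in the response to DNA damage, had 2 probes, at chr1:3649541-3649600 and chr1:3645911-3645970 (hg19, plus strand). The brighter probe read -2.58 in HN4 against -1.82 in HN4/DDP, and -2.13 in HN30 against -2.31 in HN30/DDP. The dimmer probe read -3.46, -2.41, -3.27 and -3.20 in the same order. Both were highest in HN4/DDP. The difference in HN4/DDP was 0.76 ± 0.22 by the brighter and 1.05 ± 0.24 by the dimmer probe, and in HN30/DDP it was -0.18 ± 0.22 and 0.07 ± 0.25, each smaller than its scanner SD. The HN30/DDP value of the brighter probe depended on the processing. It was -0.56 with quantile normalization, -0.55 in the authors' values and -0.60 with the array median as scale. The last scaling put the median of all genes in that line at -0.49.

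SOX2, a factor of oesophageal and oral progenitors, had 1 probe at chr3:181431877-181431936 (hg19, plus strand) and was not well above background on any array. Its processed signal was 3.75 in HN4 against 3.18 in HN4/DDP, and 10.9 in HN30 against 3.85 in HN30/DDP. All of these are below the lowest signal well above background on the same array, at 0.20 to 0.61 times that signal. No fold change is given for it.

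PITX1 had 2 bright probes, at chr5:134363424-134363483 and chr5:134364766-134364825 (hg19, minus strand). The brighter probe read 5.08 in HN4 against 4.31 in HN4/DDP, and 5.21 in HN30 against 4.84 in HN30/DDP. The other read 1.62, 0.83, 1.92 and 1.45. Both probes had the same order over the arrays, HN4/DDP lowest and HN30 highest. In HN4/DDP the difference was -0.78 ± 0.20 by each probe. In HN30/DDP it was -0.37 ± 0.20 and -0.47 ± 0.20, and for the brighter probe this direction turned to 0.15 with quantile normalization and to 0.16 in the authors' own values.

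**Figure D1:**
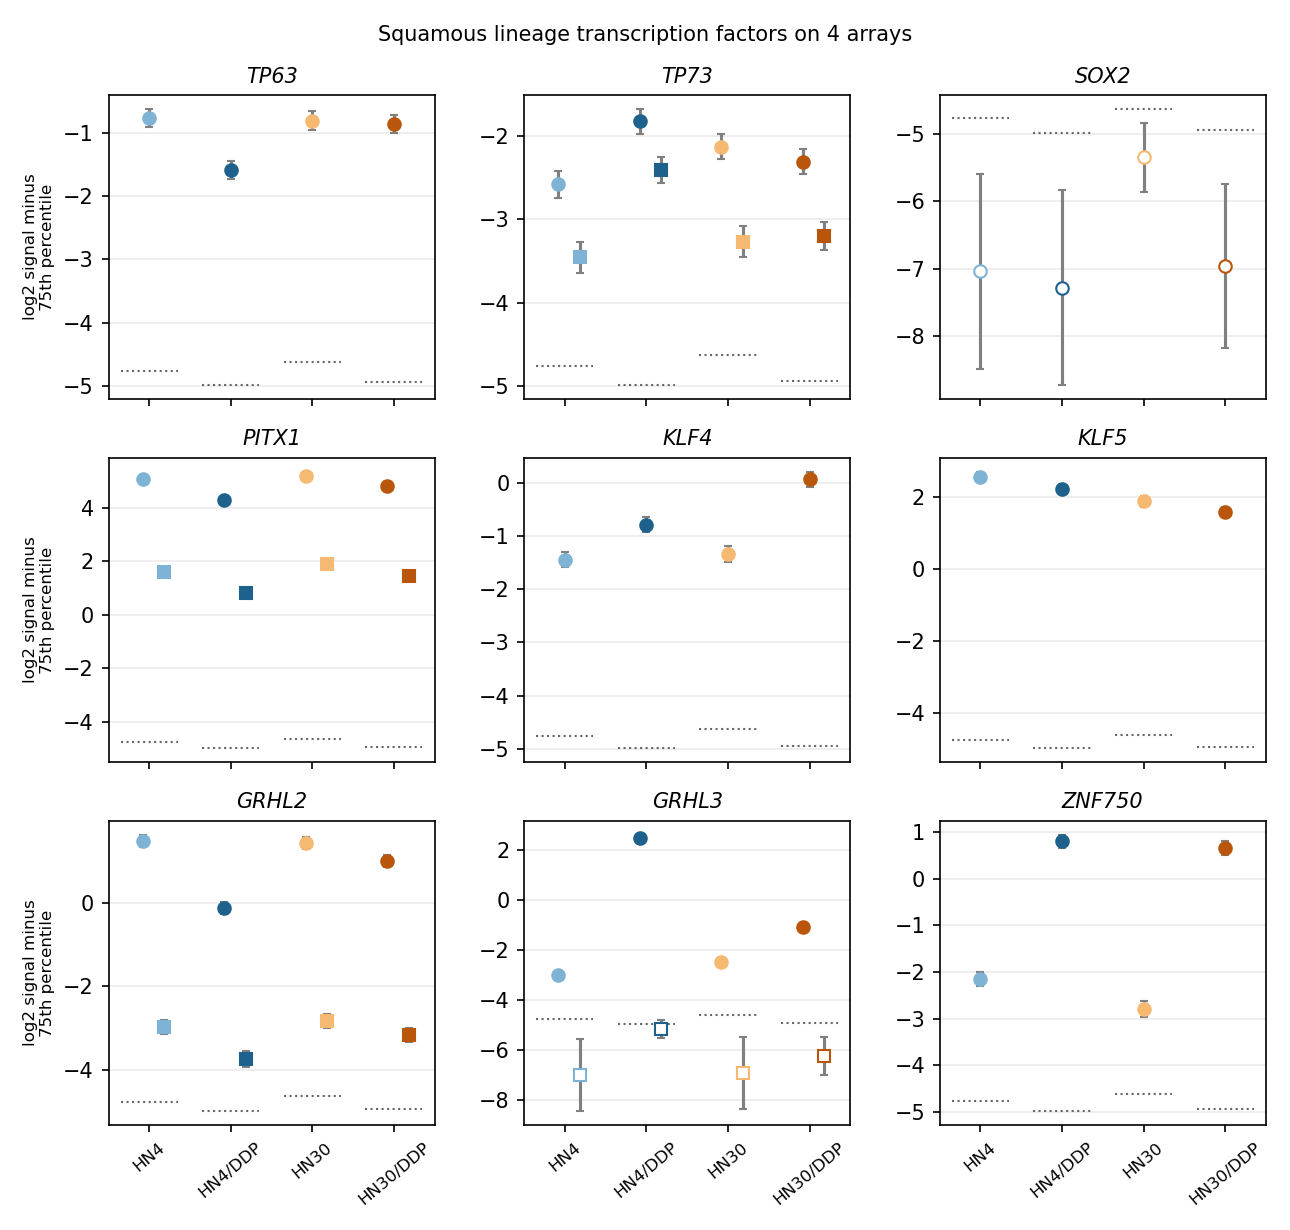
Level of each member on each array (log2 processed signal minus the array's 75th percentile, each panel with its own axis). Circles are the probe that represents the gene, squares a second probe, bars the scanner SD, open symbols spots not well above background, and dotted lines the lowest level well above background on that array. ZNF750 was at -2.15 and -2.80 in the parental lines and at 0.81 and 0.66 in the resistant lines, and SOX2 was below the dotted line on every array.

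KLF4, a zinc finger factor of the upper layers, was measured by 1 probe at chr9:110248049-110248108 (hg19, minus strand). Its level was -1.44 in HN4 against -0.79 in HN4/DDP, and -1.34 in HN30 against 0.06 in HN30/DDP. The parental lines differed by 0.10, less than the scanner error, and both resistant lines were above both parental lines. KLF4 was 1.57-fold higher in HN4/DDP (0.65 ± 0.21) and 2.64-fold higher in HN30/DDP (1.40 ± 0.21).

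KLF5, the relative of KLF4 found in proliferating cells, was measured by 1 probe at chr13:73650979-73651038 (hg19, plus strand). It read 2.55 in HN4 against 2.22 in HN4/DDP, and 1.87 in HN30 against 1.58 in HN30/DDP. With the scaling used here the lines differed more than the states: HN30 minus HN4 was -0.68 ± 0.20, while the difference was -0.33 ± 0.20 in HN4/DDP and -0.28 ± 0.20 in HN30/DDP. This order depends on the scaling, since the HN30/DDP value was -0.70 with the array median as scale. No 2 neighbours in the order of the arrays were further apart than 2 scanner SDs.

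GRHL2, the grainyhead factor of epithelial junctions, had 2 probes, both well above background on every array. The brighter probe read 1.49 in HN4 against -0.12 in HN4/DDP, and 1.44 in HN30 against 1.00 in HN30/DDP. The dimmer probe read -2.97, -3.74, -2.82 and -3.16. On both probes HN4/DDP was lowest, followed by HN30/DDP. The difference in HN4/DDP was -1.61 ± 0.20 by the brighter probe, a level 3.04-fold higher in HN4 than in HN4/DDP, and -0.77 ± 0.25 by the dimmer. In HN30/DDP it was -0.44 ± 0.20 and -0.34 ± 0.24.

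GRHL3, the grainyhead factor of terminal differentiation and barrier repair, moved the other way. Its bright probe had a processed signal of 60.5 in HN4 against 2739 in HN4/DDP, and 79.8 in HN30 against 228 in HN30/DDP. The levels were -3.03, 2.46, -2.48 and -1.07, so that both resistant lines were above both parental lines and HN4/DDP was 11.6-fold above HN30/DDP. The difference was 5.49 ± 0.22 in HN4/DDP and 1.40 ± 0.22 in HN30/DDP. In HN4/DDP it was 4.50 with normexp and 3.67 when averaged with the second probe, which was at background. Among the 23470 genes well above background on both HN4 arrays, GRHL3 had rank 14 from the highest difference, and among the 23245 such genes of the HN30 pair it had rank 2042.

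The second GRHL3 probe was not well above background on any array, with signals of 3.80 in HN4 against 13.6 in HN4/DDP, and 3.65 in HN30 against 6.26 in HN30/DDP. The order of the arrays was the same as for the bright probe, but each step lay within 2 scanner SDs. The transcript variant it was designed for was therefore not measured here.

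**Figure D2:**
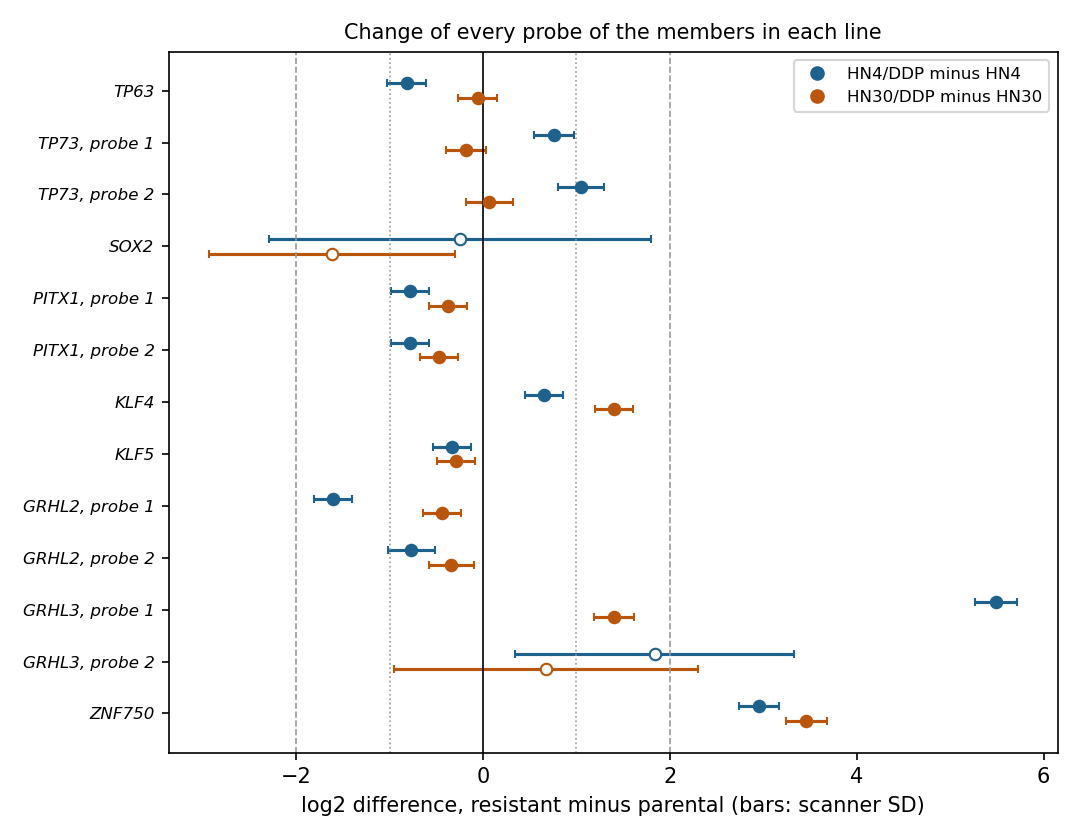
Difference between the resistant and the parental array of each line for all 13 probes (log2, x axis), with the scanner SD of the difference as bars. Filled circles are probes well above background on all 4 arrays, dotted lines mark a difference of 1 and dashed lines of 2. GRHL3 in HN4/DDP at 5.49 and ZNF750 in both lines, at 2.95 and 3.46, lie past 2.

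ZNF750, the factor that activates late and represses basal genes, had processed signals of 112 in HN4 against 868 in HN4/DDP, and 64.0 in HN30 against 760 in HN30/DDP. The levels were -2.15, 0.81, -2.80 and 0.66. The resistant lines differed from each other by 0.14 ± 0.20, less than the scanner error, while the parental lines differed by 0.65 ± 0.23. The difference was 2.95 ± 0.21 in HN4/DDP and 3.46 ± 0.22 in HN30/DDP, ranks 149 and 185 from the highest among those same genes of each pair. The difference between these 2 values was 0.51 ± 0.30. With normexp the HN30/DDP value was 2.59.

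With a difference above 2 as the call, 2 of the 8 members with a spot well above background were higher in HN4/DDP (GRHL3 and ZNF750), against 3.61% of the 26853 genes tested, and 0 were lower, against 2.2%. In HN30/DDP 1 of 8 was higher (ZNF750), against 8.37% of 28330 genes, and 0 were lower, against 2.75%. ZNF750 was the 1 member higher in both lines, against 1.01% of 29521 genes, and 0 members were lower in both, against 0.119%. SOX2 did not enter these counts.

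With a difference above 1, 2 members were higher in HN4/DDP, against 9.31% of the genes, and 1, GRHL2, was lower, against 8.65%. In HN30/DDP 3 were higher, KLF4, GRHL3 and ZNF750, against 19.8%, and 0 were lower, against 13.3%. GRHL3 and ZNF750 were higher in both lines, against 3.9% of all genes, and 0 members were lower in both, against 1.73%. In HN30/DDP GRHL3 fell short of 1 with normexp background correction (0.94) and with the array median as scale (0.98), as did KLF4 with the latter (0.98). In that line the background itself moved with the scaling: of all genes past 1, 59.9% were higher in the setting used here, 46.6% with normexp and 36.3% with the array median as scale.

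The median difference of the 8 members was 0.16 in HN4/DDP and -0.12 in HN30/DDP, beside -0.08 and 0.06 over all genes tested in the same way. With SOX2 included, the medians over all 9 members were -0.25 and -0.18, and the sign in HN4/DDP turned because SOX2, at background, became the middle value. In HN4/DDP 4 of 8 had a difference above 0 and 4 below, beside 11840 of all 26853 genes tested above 0. In HN30/DDP 3 were above and 5 below, beside 14978 of 28330 genes above 0. The members were thus split about as all genes were. In HN30/DDP the values of TP63 and TP73 were smaller than their scanner SD.

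**Figure D3:**
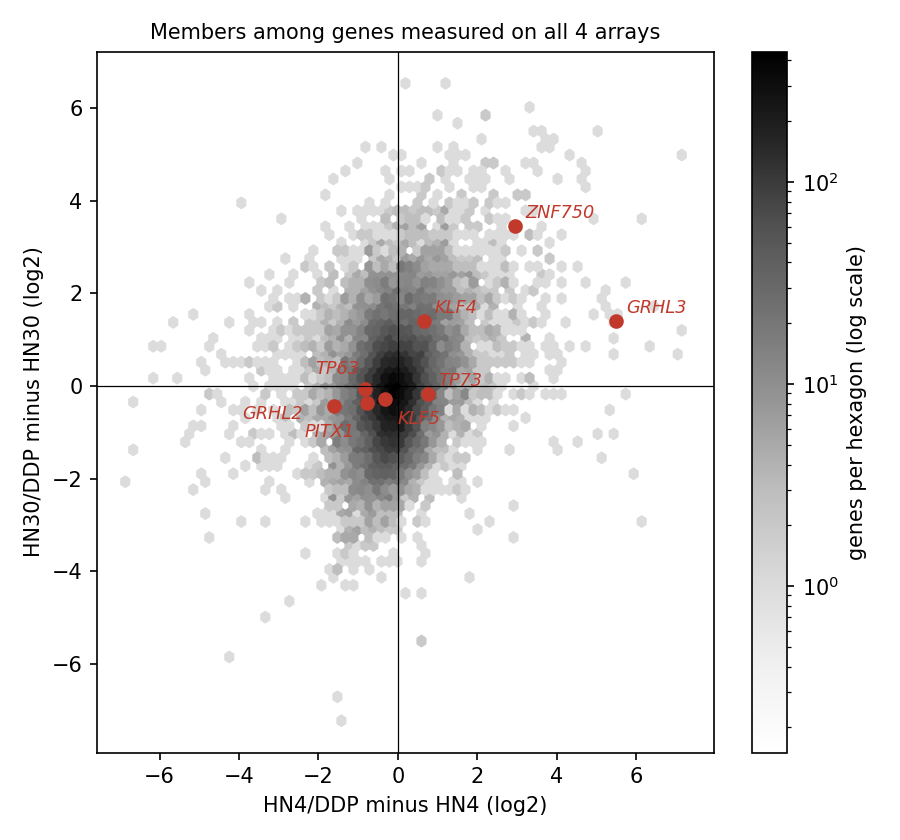
Difference in HN4/DDP (x axis, log2) against difference in HN30/DDP (y axis, log2) for the genes well above background on all 4 arrays; the grey scale is the number of genes per hexagon on a log scale and red points are the 8 members so measured. ZNF750 (2.95 and 3.46) and GRHL3 (5.49 and 1.40) lie away from the dense centre, while TP63, TP73, PITX1, KLF5 and GRHL2 lie near 0 on the y axis.

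With the lines as replicates, the 2 resistant were set against the 2 parental arrays, blocked by cell line, with 1 residual degree of freedom left. The contrast of the lines over both states, which the same arrays allow, was not fitted. By limma, 0 of 29521 genes (0%) and 0 of the 8 members had an adjusted p under 0.05. Without adjustment, 2537 genes had p under 0.05, and 2 of the 8 members, ZNF750 and GRHL3. For ZNF750 the mean difference was 3.21 (SE 0.38, limma adjusted p = 0.382, higher in 2 of 2 lines), rank 49 by p among all genes. For GRHL3 it was 3.45 (SE 1.04, limma adjusted p = 0.525, higher in 2 of 2 lines). The other settings of the limma fit gave adjusted p-values of 0.237 to 0.669 for ZNF750 and 0.418 to 0.671 for GRHL3.

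KLF4 had a limma mean difference of 1.03 (adjusted p = 0.591) and GRHL2 of -1.02 (adjusted p = 0.654). For PITX1, TP63, KLF5 and TP73 the limma means were -0.57, -0.44, -0.31 and 0.29, with adjusted p-values of 0.705 to 0.873. These p-values measure the spread between 2 lines and not between replicates of a line.

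Between the parental lines, HN30 minus HN4 was -0.04 for TP63, 0.10 for KLF4 and, by the brighter probes, 0.13 for PITX1 and -0.05 for GRHL2, each smaller than its scanner SD of about 0.2. The dimmer PITX1 probe gave 0.31 ± 0.20 and the dimmer GRHL2 probe 0.15 ± 0.24. For the brighter TP73 probe, KLF5, the brighter GRHL3 probe and ZNF750 it was 0.45, -0.68, 0.55 and -0.65, each over 2 scanner SDs, while the dimmer TP73 probe gave 0.19 ± 0.26. Between the resistant lines TP63, KLF4, PITX1 and GRHL2 were 0.72, 0.85, 0.54 and 1.12 higher in HN30/DDP than in HN4/DDP. For GRHL3 HN30/DDP minus HN4/DDP was -3.54, the largest such gap among the 8 members.

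The counts of the related lists stand against the shares of all genes past 1, 9.31% higher and 8.65% lower in HN4/DDP and 19.8% higher and 13.3% lower in HN30/DDP, and against medians of -0.08 and 0.06. Of 20 family relatives, all on the array, 18 were tested in HN4/DDP, where 2 were higher and 1 lower past 1 (median 0.19), and 19 in HN30/DDP, where 3 were higher and 3 lower (median 0.40). KLF2, a relative of KLF4, was the 1 relative past 1 the same way in both lines, at 1.06 and 1.07 (scanner SD 0.21 each). In HN4/DDP the highest was KLF6 (1.26, and 0.11 in HN30/DDP) and the lowest SOX7 (-2.37, and 0.57 in HN30/DDP). In HN30/DDP KLF9 was highest (2.94, and -0.40 in HN4/DDP) and UBP1, a distant grainyhead relative, lowest (-1.77, and -0.71). GRHL1, the closest relative of GRHL2 and GRHL3, differed by 0.64 in HN4/DDP and 0.87 in HN30/DDP. GRHL1 is named here because of its family, after its values had been seen.

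Of 28 other epithelial transcription factors, 26 were tested in each line. In HN4/DDP 1 was higher and 5 were lower past 1 (median -0.10), and in HN30/DDP 5 were higher and 3 lower (median 0.25). HES1, a target of NOTCH signalling, was higher in both lines, by 2.32 and 1.84, and FOXQ1, a forkhead factor, was lower in both, at -1.65 and -1.75. SNAI2, a zinc finger factor of basal keratinocytes, had the lowest value in HN4/DDP (-2.75) but 0.65 in HN30/DDP. GATA3 was highest in HN30/DDP (2.33) and near its parental level in HN4/DDP (0.16).

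Of 23 partners and regulators of the members, all tested, 0 passed 1 in HN4/DDP (median -0.29), and in HN30/DDP 2 were higher and 2 lower (median -0.01). YAP1 was lowest in HN4/DDP (-0.85), and its relative WWTR1 was highest there (0.80) and lowest in HN30/DDP (-1.32). NOTCH3, a receptor of the upper layers, was highest in HN30/DDP (2.49, and 0.73 in HN4/DDP). KMT2D, a histone methyltransferase, differed by -0.36 in HN4/DDP and -0.05 in HN30/DDP. It was picked by hand, after its values had been seen.

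Basal squamous genes, many of them known targets of TP63, numbered 25, all tested. In HN4/DDP 6 were higher and 3 lower past 1 (median -0.01), beside 9.31% and 8.65% of all genes. In HN30/DDP 7 were higher and 4 lower (median 0.55), beside 19.8% and 13.3%. COL17A1, a collagen of the hemidesmosome, was higher in both lines, by 5.67 and 2.26, as was CLCA2 by 3.49 and 2.19. KRT5, a basal keratin, was lower in both, at -4.05 and -1.93, and so was PTHLH, at -2.08 and -1.60. The other keratins of the list, named after their values had been seen, were higher in HN4/DDP, KRT14 by 2.33, KRT15 by 1.71 and KRT17 by 3.29, and differed by 0.22, -1.60 and 0.19 in HN30/DDP. FGFR3 was highest in HN30/DDP (3.74) and differed by -0.37 in HN4/DDP.

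Squamous differentiation genes include known targets of KLF4, GRHL3 and ZNF750. Of 25 genes, 18 were tested in HN4/DDP, where 6 were higher and 1 lower past 1 (median 0.60). Past 2, 4 were higher there, beside 3.61% of all genes. In HN30/DDP 19 were tested, of which 5 were higher and 3 lower past 1 (median 0.30). Past 2, 1 was higher and 2 were lower there, beside 8.37% and 2.75% of all genes. IVL, a protein of the cornified envelope, was the 1 gene past 1 the same way in both, at 1.35 ± 0.24 and 1.62 ± 0.26. SPRR2A, another envelope protein, was the highest of the list in HN4/DDP (6.13) and the lowest in HN30/DDP (-2.90). SBSN was highest in HN30/DDP (2.44, and 0.55 in HN4/DDP) and CALML5 lowest in HN4/DDP (-1.46, and 0.24 in HN30/DDP). Whether these genes follow the members was not tested.

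Of 20 epithelial junction genes, among which are known targets of GRHL2, 1 was higher and 1 lower past 1 in HN4/DDP (median 0.09), where GRHL2 differed by -1.61, and 3 were higher and 4 lower in HN30/DDP (median -0.01). CLDN1 was lowest in HN4/DDP (-1.65, and -0.02 in HN30/DDP), ESRP2 lowest in HN30/DDP (-2.08, and -0.58 in HN4/DDP), and TJP3 highest in both (1.15 and 3.61). CDH1, another gene of this list, differed by 0.58 and 1.34 (HN4/DDP first). EPCAM went the other way, at -0.14, which is smaller than its scanner SD of 0.20, and -0.72. CDH1 and EPCAM were picked by hand, with their values already known.

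Of 16 mesenchymal markers, 10 were tested in HN4/DDP, where 5 were higher and 1 lower past 1 (median 0.54), beside 9.31% and 8.65% of all genes. In HN30/DDP 9 were tested, of which 4 were higher and 1 lower (median 0.95), beside 19.8% and 13.3%. SNAI1 was higher in both lines (3.10 and 1.44), as were COL1A1 (1.73 and 2.43) and ACTA2 (1.09 and 2.11). TWIST1 was lowest in HN4/DDP (-1.01) and CDH2 in HN30/DDP (-2.27). Of the 8 immune and endothelial markers on the array, 5 were tested in HN4/DDP, where 1 was higher and 1 lower past 1 (median -0.10), and 6 in HN30/DDP, where 4 were higher and 0 lower (median 1.30), beside the same shares of all genes. VWF was higher past 1 in both lines, at least 5.37-fold in HN4/DDP, where the parental spot was dim, and by 1.49 in HN30/DDP. PECAM1 was the marker lower in HN4/DDP, at least 2.05-fold, where the resistant spot was dim, and at least 1.64-fold higher in HN30/DDP, where the parental spot was dim. Of those measured on both arrays of a pair, CD14 had the highest value in both lines (0.56 and 3.49) and CDH5 the lowest (-0.62 and -0.59).

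**Figure D4:**
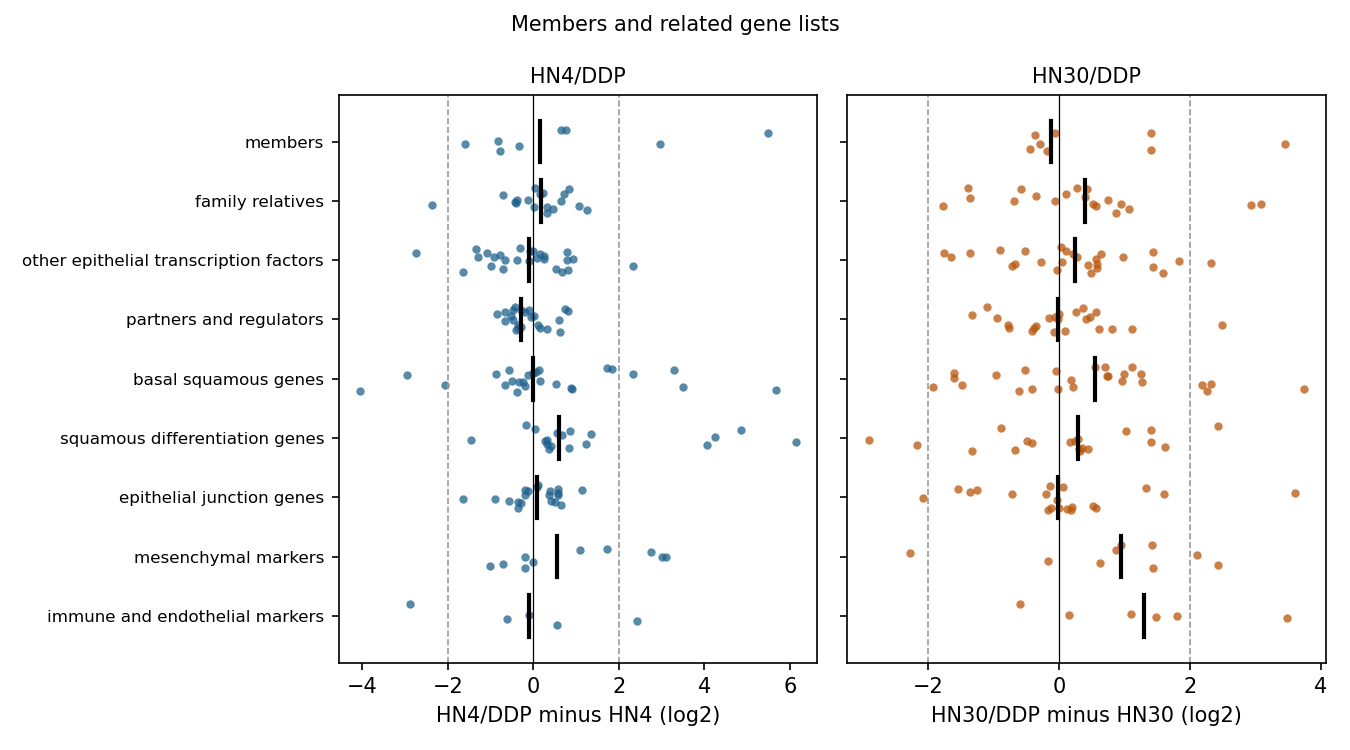
Difference of each gene in the members and 8 related lists, HN4/DDP minus HN4 on the left and HN30/DDP minus HN30 on the right (log2). Each point is a gene well above background on at least 1 array of the pair, black bars are list medians and dashed lines mark a difference of 2. The medians of the members, 0.16 and -0.12, are near 0 while single members, GRHL3 and ZNF750 in HN4/DDP and ZNF750 in HN30/DDP, lie past 2.

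For the members with a range of at least 1 over the arrays, the genes nearest in pattern were sought among the 22148 other genes well above background on all 4 arrays, by the root mean square (RMS) difference of the mean-centred levels. GRHL3 was nearest to BATF2, an AP-1 family factor, at an RMS difference of 0.10, then to KRT16, a stress keratin, at 0.19, and KPNA7 at 0.31. ZNF750 was nearest to GRAMD2, renamed GRAMD2A in RefSeq (0.11), the fatty acid transporter gene SLC27A1 (0.16) and the phospholipase gene PLCD1 (0.17). The nearest to KLF4 were KCNIP2-AS1 (0.0095), DNAJC4 (0.020) and SHD (0.040), and the nearest to GRHL2 were UACA (0.022), TUBA8 (0.029) and RAC1 (0.035). KRT16 differed by 5.25 in HN4/DDP and 1.81 in HN30/DDP, beside 5.49 and 1.40 for GRHL3. With 4 arrays a near pattern is a description of these arrays.

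**Figure D5:**
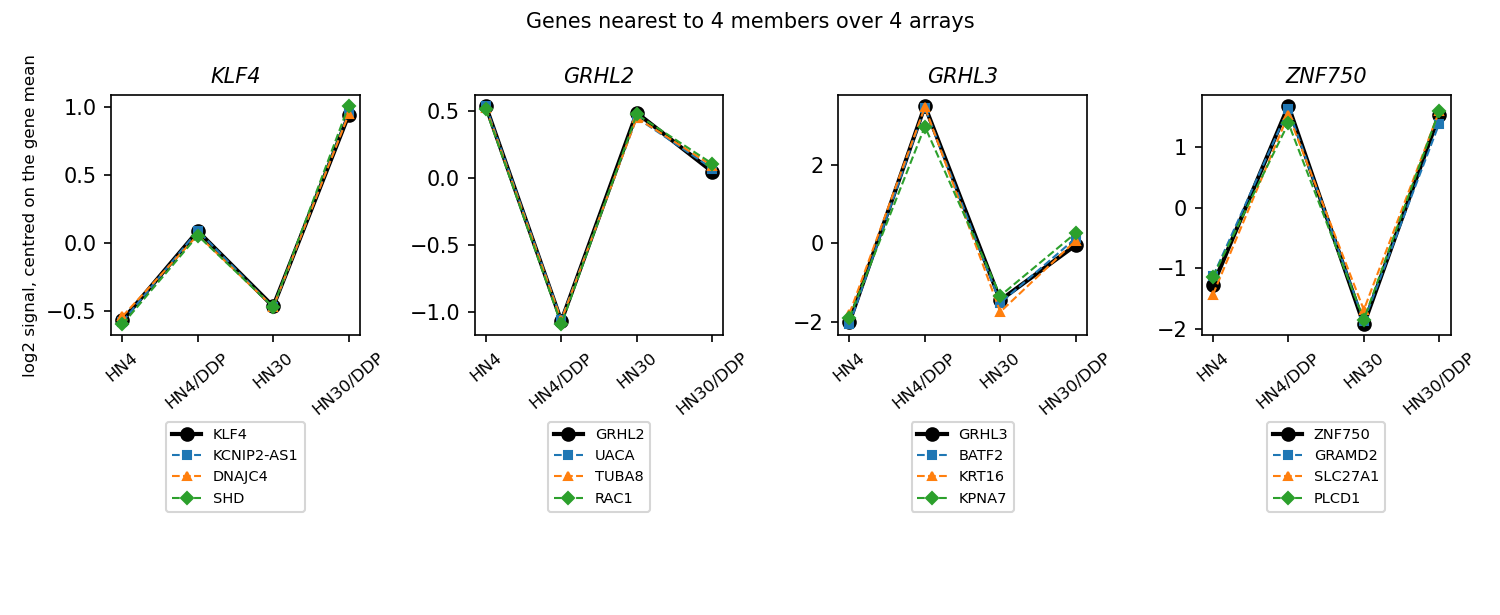
Mean-centred log2 level over the 4 arrays of KLF4, GRHL2, GRHL3 and ZNF750 (black) and of the 3 genes nearest to each (coloured, dashed). The curves of KLF4 and GRHL2 lie almost on those of their neighbours, with RMS differences of at most 0.040, while those of GRHL3 and ZNF750 have fewer close neighbours, at 0.10 or more.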

How the data were processed

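RNA of 4 samples, 1 for each parental and each resistant line, was measured on one-colour Agilent arrays that shared 1 slide. The authors deposited scanner output that holds a processed intensity per spot, from Agilent Feature Extraction 10.7.1.1 (submitters' processing notes; hg19 probe positions): background subtracted, spatial trend removed and very low signals replaced by surrogates. They also deposited a log2 table whose sorted values were identical on all arrays (median 4.65), used as an alternative.

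Spots marked as outliers were left out and spots of a probe averaged. The log2 intensity was centred on the array's 75th percentile over non-control probes. The probe with the highest mean stood for its gene. A gene was higher when its difference exceeded 2 (or 1) and the resistant spot was well above background, and lower by the mirrored rule. The replicated contrast used limma 3.58.1 (R 4.3.3, eBayes with trend, Benjamini-Hochberg) on genes with 1 or more spots well above background. The fit was tested only on simulated data in which all genes had the same spread and changed genes moved alike in both lines. That setting is simpler than these arrays, so it does not show how the contrast performs on them. Other steps used Python 3.11.15, numpy 2.4.6, pandas 2.3.3 and matplotlib 3.10.9. Alternatives were normexp (offset 50), other scalings, a pseudocount of 16, filters and probe rules.

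All members are named. From each other list were named genes past 1 the same way in both lines (up to 5), and in each line the highest and lowest gene measured on both arrays. The members and lists were chosen with earlier results of these data known. All 13 member probes matched their symbol by accession in RefSeq (GRCh38.p14), which gave names and promoters only. The precision is limited by the number of arrays, 1 per condition.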

Additional observations from a re-analysis of the deposited data

How the results depend on the processing

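Each member count, each median and each member's difference was recomputed under normexp, the array median as scale, quantile normalization, the authors' values, a pseudocount of 16, genes well above background on both arrays only, dim signals at their bound, the mean of a gene's probes, and outlier spots kept. The counts past 2 stayed at 2 in HN4/DDP and 1 in HN30/DDP under all of these, and with 1 as the threshold they were 3 and 3. The median of the members in HN4/DDP, -0.25, was -0.023 with normexp, -0.00095 with quantile normalization, -0.00097 in the authors' values and 0.16 among members measured on both arrays. In HN30/DDP, where it was -0.18, it was -0.60 with the array median as scale, a scaling that also put the median of all genes at -0.49 in place of -0.07. The other quantities of this kind moved by less than the scanner SD. Of 160 recomputed member differences, 132 moved by less than their scanner SD, and no difference past 1 changed sign. The 132 include values that could not move. Keeping outlier spots, or only members measured on both arrays, left every member difference as it was. Dim signals at their bound could move only SOX2, and the mean of the probes only genes with a second probe. ZNF750 ranged over 2.44 to 2.99 in HN4/DDP and 2.59 to 3.46 in HN30/DDP, and GRHL3 over 3.67 (mean of its probes, of which 1 was at background) to 5.53 and 0.94 to 1.40. The limma count of 0 members stayed at 0 under 6 other settings, in which 1 to 3 members had an unadjusted p under 0.05, beside 2169 to 3261 of 29521 genes in 5 of them and 2921 of 43305 with all genes in the fit. The limma contrast pairs the arrays by cell line. Within a line, no paired analysis was possible because each condition has 1 array. Leaving out a replicate was not possible either. The causes of these movements were not tested.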

Other observations

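Some transcripts that the array design names after a member, or that lie at its locus, also differed. They were chosen by name after the members' values had been seen, and nothing was tested. TP73-AS1, the antisense neighbour of TP73, was well above background on all 4 arrays by 3 probes and higher in both resistant lines, by 1.33 to 1.49 in HN4/DDP and by 0.89 to 1.74 in HN30/DDP. TP73 itself differed by 0.76 and -0.18 by its brighter probe. lnc-GRHL2-1, a noncoding transcript near GRHL2, was lower in both lines, at -1.10 ± 0.21 and -1.74 ± 0.21, while GRHL2 differed by -1.61 and -0.44. Other transcripts named after GRHL2 did not share this. lnc-GRHL2-2 and lnc-GRHL2-9 were well above background only in HN30/DDP, by 1.47 ± 0.72 and 1.33 ± 0.65 over dim HN30 spots. lnc-GRHL2-5 and lnc-GRHL2-7 were not well above background on any array. TBCD, a tubulin cofactor gene that overlaps ZNF750 on the other strand, differed by 0.24 and 0.02 in HN4/DDP and by -0.65 and -0.59 in HN30/DDP on its 2 probes, beside 2.95 and 3.46 for ZNF750. lnc-ZNF750-1 differed by -0.40 ± 0.31 and 0.49 ± 0.29. SOX2-OT was not well above background on any array by 3 of its 4 probes, and the fourth was so in HN4 (-4.60) and HN30/DDP (-4.89) but not in HN4/DDP or HN30.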
